A study of Mus musculus with 8 samples.

Results

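The 7 genes described here encode the elastases and chymotrypsins of the exocrine pancreas, namely Cela1, Cela2a, Cela3a, Cela3b, Ctrb1, Ctrc and Ctrl. They were chosen by gene name from the 21434 genes of the table, and all 7 were present. Pancreatic tissue was taken from 4 Bach2WT and 4 Bach2KO mice, and mRNA was sequenced in 1 library per mouse. The Bach2KO mice carried a constitutive whole-body knockout of Bach2, a transcriptional repressor of lymphocytes (C57BL/6N-Bach2tm1b(EUCOMM)Wtsi/leg), not restricted to a cell type, and the Bach2WT mice were wild-type controls entered under the same line. All mice were untreated and 18 weeks old, and in each group mice 1 and 2 were female and mice 3 and 4 male. The comparison asked how gene expression in the pancreas differed between the genotypes before any further manipulation.

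Elastases and chymotrypsins are serine proteases that acinar cells store in zymogen granules as inactive proenzymes. After secretion they are activated in the gut by trypsin, and they then cut dietary proteins, the chymotrypsins after aromatic or large hydrophobic residues and the elastases mainly after small or medium-sized ones. Chymotrypsin C, the product of Ctrc, can also degrade trypsinogen and so limits premature trypsin activity, although C57BL/6 mice are known to carry a natural frameshift deletion in Ctrc that disables the protein. In acinar cells, genes of this kind are driven by the PTF1 complex, which binds an E-box (CANNTG) followed by a TC-box (TTTCCC).

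The windows before the start sites of Cela1 and Ctrb1 are shown because both hold these elements in the same spacing. They are the 250 bases before the RefSeq gene start in GRCm38.p6, at chr15:100687921-100688170 and chr8:111691011-111691260, both on the minus strand, and capitals mark the E-box and the TC-box.
Cela1: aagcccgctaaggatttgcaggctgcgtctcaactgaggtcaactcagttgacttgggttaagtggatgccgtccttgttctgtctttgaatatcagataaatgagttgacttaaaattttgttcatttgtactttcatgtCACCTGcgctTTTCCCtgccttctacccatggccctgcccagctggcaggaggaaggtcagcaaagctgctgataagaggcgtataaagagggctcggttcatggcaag
Ctrb1: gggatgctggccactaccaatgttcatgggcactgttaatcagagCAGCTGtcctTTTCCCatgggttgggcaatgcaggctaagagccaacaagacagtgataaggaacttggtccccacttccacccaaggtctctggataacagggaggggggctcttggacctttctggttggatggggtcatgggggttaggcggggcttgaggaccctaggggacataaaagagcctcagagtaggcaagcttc
The motif searched was CANCTGNNNNTTTCCC on both strands, a form chosen after the letters of the members had been read. It began 109 bases before the start of Cela1 and 205 bases before that of Ctrb1. Of 32851 RefSeq windows of the same length, 9 held it, which is 0.0274%, and it was in 2 of the 6 members with a window. Ctrc had no entry. The shorter E-box CACCTG, which may overlap the longer motif, was in 5 of the 6 windows and in 17.2% of all windows. TATAAA was in 1 of the 6, that of Cela1, and in 12.4% of all windows. A match describes letters and was not tested as a binding site.

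Cela3a and Cela3b are neighbouring genes of nearly the same sequence, and their windows at chr4:137409792-137410041 and chr4:137430521-137430770 (GRCm38.p6, minus strand) are shown for that reason. Capitals mark bases that differ, or that have no partner, in the alignment of the pair.
Cela3a: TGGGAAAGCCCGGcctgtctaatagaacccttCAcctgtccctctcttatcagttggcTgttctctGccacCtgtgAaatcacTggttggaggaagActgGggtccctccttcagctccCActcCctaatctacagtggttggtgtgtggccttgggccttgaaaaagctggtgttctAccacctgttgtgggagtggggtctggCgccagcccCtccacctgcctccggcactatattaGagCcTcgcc
Cela3b: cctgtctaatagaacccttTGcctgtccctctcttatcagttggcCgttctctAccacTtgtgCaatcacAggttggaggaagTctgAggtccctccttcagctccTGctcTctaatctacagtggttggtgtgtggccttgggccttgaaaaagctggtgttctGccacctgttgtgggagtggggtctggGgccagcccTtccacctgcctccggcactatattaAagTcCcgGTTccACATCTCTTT
Of the aligned bases 92.4% were identical, with 18 mismatches and 26 positions in gaps. The protein-coding transcripts of GENCODE vM21, 958 bases for Cela3a and 926 for Cela3b, were 94.5% identical over their aligned bases. They shared a run of 163 bases letter for letter, of which the following 145 lie in the coding sequence of both.
Shared run: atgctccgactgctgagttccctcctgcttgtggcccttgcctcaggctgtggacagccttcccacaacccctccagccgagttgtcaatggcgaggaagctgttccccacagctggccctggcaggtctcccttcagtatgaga
The 90 coding bases with the most differences hold 14 mismatches, marked by capitals.
Cela3a coding: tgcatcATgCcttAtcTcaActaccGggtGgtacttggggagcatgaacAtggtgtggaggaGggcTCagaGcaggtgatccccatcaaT
Cela3b coding: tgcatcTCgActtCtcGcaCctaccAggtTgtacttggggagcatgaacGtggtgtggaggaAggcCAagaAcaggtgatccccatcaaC
A read of 150 bases, the length sequenced, cannot be told apart where it lies wholly in an identical stretch. This was so for 14 of the 809 windows of that length in Cela3a, or 1.73%. At 50 bases it was so for 311 of 909 windows, or 34.2%. The transcripts of Cela1, Ctrb1 and Ctrl shared no such window with any other gene. Cela2a shared 17.5% of its 150-base windows with a Ctrc transcript model of GENCODE vM21, whereas the intervals of these genes in the deposited table did not overlap.

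The libraries held 72299745 to 172029360 counts on genes, and intervals based on such counts would cover counting error only. The 36 listed digestive enzyme genes, members included, took 85.1 to 88.6% of all counts in each library, which is the pancreas as labelled. Bach2 itself had 16, 3, 12 and 14 counts in Bach2KO mice 1 to 4 and 4, 4, 31 and 6 in Bach2WT mice 1 to 4. These counts cover the whole gene, including parts outside the deleted segment, and do not check the genotype labels. Mitochondrially encoded genes took 0.118 to 0.178% of counts in 7 libraries and 0.367% in Bach2KO mouse 3. The labels name 4 separate mice per group and give no batch. The authors kept independent colonies at separate sites and do not name the site of the sequenced mice.

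Together the members took nearly the same share of all counts in both genotypes. Their summed share of all counts was 39.98, 39.98, 40.14 and 39.25% in Bach2KO mice 1 to 4 (39.8% ± 0.399, SD, n = 4) and 40.35, 38.06, 41.49 and 40.08% in Bach2WT mice 1 to 4 (40.0% ± 1.43, SD, n = 4). The groups overlapped fully. Once libraries were scaled with TMM factors, which are set by the bulk of the other genes, the summed level was 340000, 372900, 383300 and 338600 CPM (counts scaled to a common library size) in the Bach2KO mice. In the Bach2WT mice it was 365800, 443300, 497000 and 485100 CPM. Bach2WT mouse 1 lay within the Bach2KO range and the other Bach2WT mice above it. The TMM factors were 1.05 to 1.18 in the Bach2KO libraries, 1.103 in Bach2WT mouse 1 and 0.826 to 0.859 in Bach2WT mice 2 to 4.

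**Figure D1:**
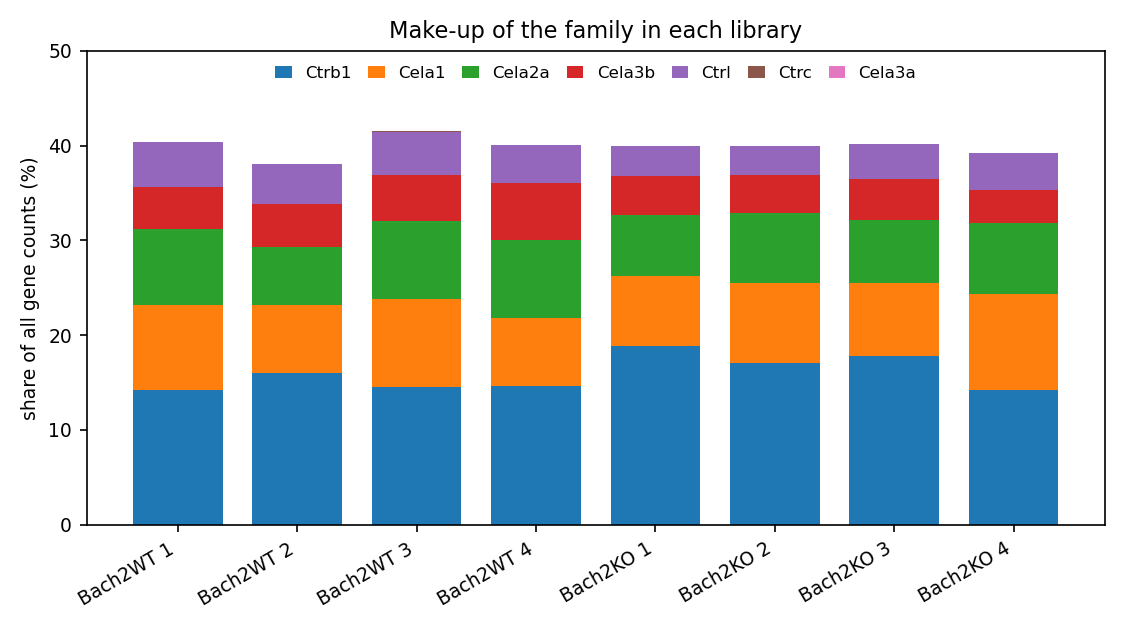
Share of all gene counts (%) taken by each of the 7 genes in each library, stacked; Ctrc and Cela3a are too small to be seen. The stacks end between 38.06 and 41.49% in both genotypes, while the Ctrb1 block is from 14.19% up in Bach2WT mice and reaches 18.87% in Bach2KO mouse 1.

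Levels of different genes were compared per length, in the FPKM values of the authors (counts per kilobase of gene, here scaled by a size factor for each library). Ctrb1, chymotrypsinogen B, stood at 178300 FPKM ± 26510 (SD, n = 8), the highest mean of all 21434 genes. Cela2a (42060 ± 9573), Cela1 (35340 ± 6241), Ctrl (33840 ± 9231) and Cela3b (27070 ± 8681) followed in FPKM. Ctrc was far below them at 180.9 ± 59.77 FPKM, and Cela3a was lowest at 14.31 ± 6.511 FPKM. Cela1 exceeded Ctrl in only 5 of the 8 libraries and Ctrl exceeded Cela3b in 7 of 8, so the order of these neighbours did not hold beyond their spread. Every other neighbour pair kept its order in 8 of 8 libraries. The deposited length joins the exons of all transcripts. With the length of the longest protein-coding transcript instead, Cela1 (73550 FPKM) passed Cela2a (67730 FPKM) and Cela3b (48670 FPKM) passed Ctrl (44510 FPKM), while the first and the last 2 places stayed as they were.

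**Figure D2:**
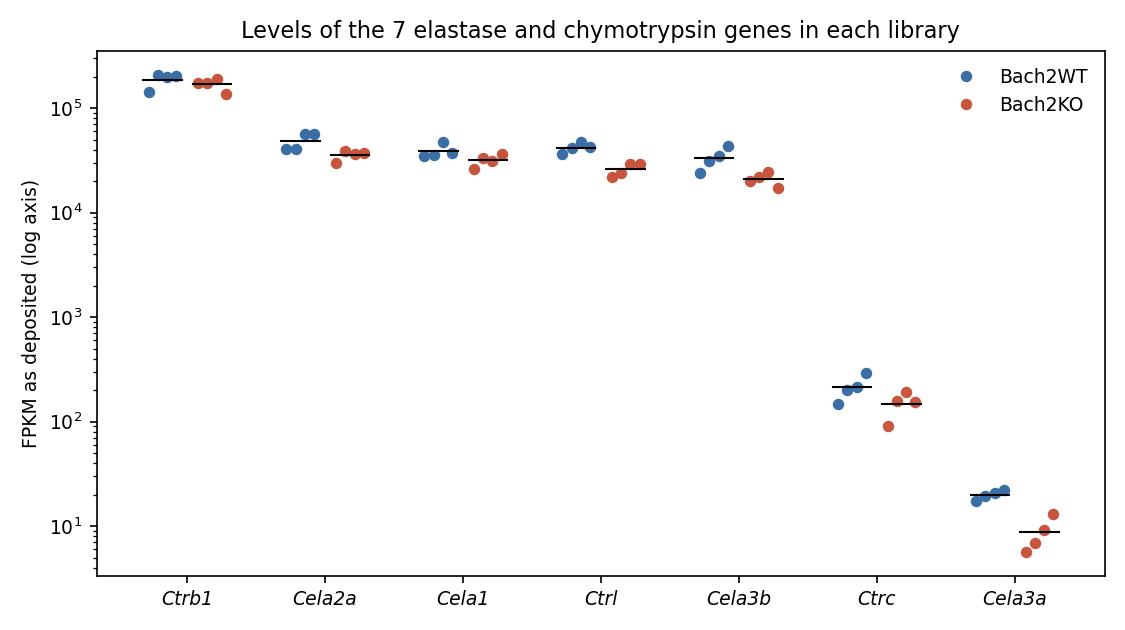
Deposited FPKM (log axis) of each gene in each library, ordered by the mean over the 8 libraries, with short lines at the group means. Ctrb1 lies between 137000 and 209000 FPKM, Cela2a, Cela1, Ctrl and Cela3b share the range from 17140 to 56700, and Ctrc and Cela3a reach at most 293.3 and 22.1.

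In the comparison of genotypes, all 7 genes had a lower mean normalized level in Bach2KO than in Bach2WT mice, by 0.12 to 1.18 on the log2 scale. The difference was largest for Cela3a, followed by Ctrl and Cela3b, and smallest for Ctrb1. In edgeR's quasi-likelihood test 4 members were lower at an unadjusted p under 0.05, against 3.56% of the 12820 genes tested. None passed the Benjamini-Hochberg adjusted threshold of 0.05, which 0.0078% of all tested genes did in either direction. The normalized values of 3 members did not overlap between the groups and were lower in Bach2KO mice, against 1.92% of all genes. DESeq2 called 2 members at its adjusted threshold, Cela3a (adjusted p = 0.00136) and Ctrl (adjusted p = 0.0101), against 0.108% of its genes. The median log2 fold change of the members was -0.51, beside 0.05 for all tested genes, of which 45.3% were lower. In bulk tissue, fewer acinar cells and less RNA per acinar cell cannot be told apart.

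These directions depend on the scaling. With total counts as library sizes and no factors, a setting added after the data were seen, the median of all tested genes moved from 0.05 to 0.35. Cela1 and Ctrb1 then turned to 0.04 and 0.20, neither at an unadjusted p under 0.05. Cela2a stood at -0.12 and Ctrc at -0.19. Cela3a at -0.86, Ctrl at -0.35 and Cela3b at -0.32 stayed lower at an unadjusted p under 0.05 (adjusted p = 0.241, 0.281 and 0.325, edgeR), 3 members against 0.367% of all genes under this scaling. Relative to the median of all genes, every member was lower under both settings. A change of library factors moves all genes by about the same step, so the 2 settings are not separate support for this.

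**Figure D3:**
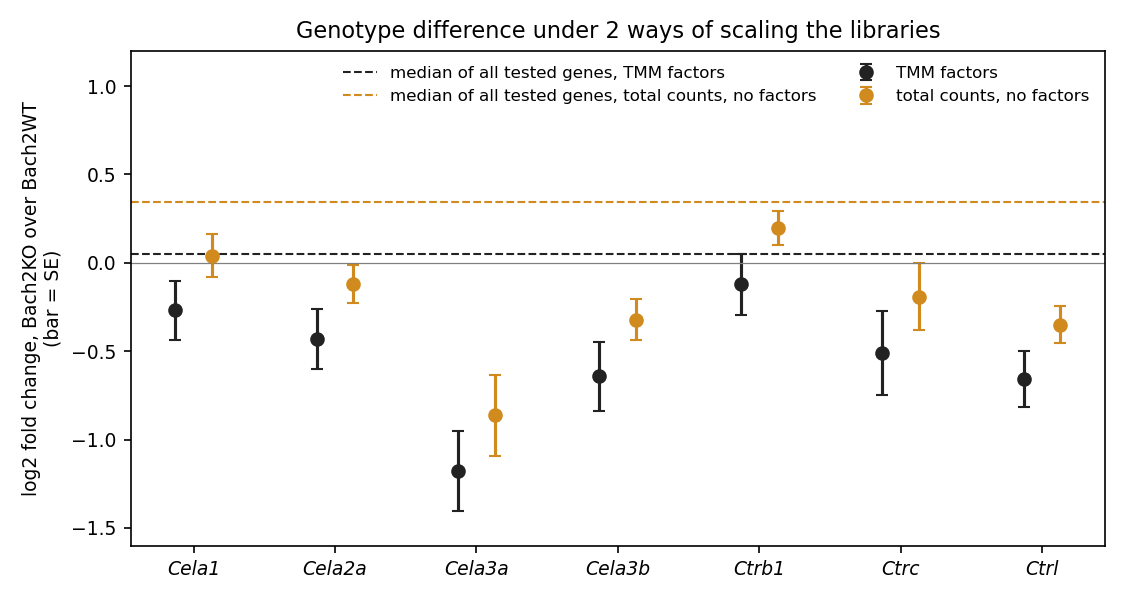
Log2 fold change of Bach2KO over Bach2WT mice with its SE (edgeR) for each gene under TMM factors and under total counts, with the median of all tested genes as dashed lines. Points move up by about the same step under total counts, Cela1 and Ctrb1 cross 0, and Cela3a, Cela3b and Ctrl stay below it.

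Among the elastases, Cela3a (ENSMUSG00000078520, chr4:137128865-137137102 in mm39, minus strand), one of the elastase 3 genes, differed most. It had 5.73, 6.82, 8.995 and 12.7 CPM in Bach2KO mice 1 to 4 and 16.9, 19.0, 20.1 and 21.4 CPM in Bach2WT mice 1 to 4. The highest Bach2KO mouse lay below the lowest Bach2WT mouse. This was a log2 fold change of -1.18 ± 0.22 (SE), or a ratio of 0.442, with an unadjusted p under 0.05 and an adjusted p = 0.266 in edgeR. These levels rest on 565 to 2891 counts, which is 0.0164, 0.0181, 0.0216 and 0.0434% of the Cela3b count in the Bach2KO mice and 0.0417, 0.0358, 0.0348 and 0.0294% in the Bach2WT mice. The genes share stretches as long as a read, as shown above, and the part that reads of Cela3b may have in these counts was not tested.

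Cela3b (ENSMUSG00000023433, chr4:137148310-137157851, minus strand), the abundant elastase 3 gene, had 35000, 37720, 41660 and 29210 CPM in Bach2KO mice. Its levels were 40610, 53050, 57860 and 72650 CPM in Bach2WT mice. Bach2WT mouse 1 lay within the Bach2KO range and the other Bach2WT mice above it. The difference was -0.64 ± 0.19 on the log2 scale, with an unadjusted p under 0.05 and an adjusted p = 0.523 in edgeR. As a share of all counts it was 3.39 to 4.36% in Bach2KO and 4.48 to 6.00% in Bach2WT mice, with no overlap. With the counts of Cela3a and Cela3b summed to 1 gene, the difference was -0.64 as for Cela3b alone.

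Cela2a (ENSMUSG00000058579, chr4:141542273-141553471, minus strand), the elastase 2 gene, had 54650, 68440, 63260 and 65450 CPM in Bach2KO mice and 72210, 71020, 98180 and 98520 CPM in Bach2WT mice. On this scale the groups did not overlap, and the male Bach2WT mice stood above the female ones. As a share of all counts the groups overlapped, at 6.43 to 7.59% in Bach2KO and 6.10 to 8.20% in Bach2WT mice. The log2 fold change of -0.43 ± 0.17 had an unadjusted p under 0.05 and an adjusted p = 0.627 in edgeR. The unadjusted p was above 0.05 when Bach2KO mouse 1, Bach2WT mouse 3 or Bach2WT mouse 4 was left out (adjusted p = 0.906, 0.845 and 0.865, edgeR).

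Cela1 (ENSMUSG00000023031, chr15:100572302-100585802, minus strand), the elastase 1 gene, had 63000, 79150, 73400 and 86520 CPM in Bach2KO mice and 81670, 83620, 111300 and 87020 CPM in Bach2WT mice. Bach2KO mouse 4 lay among the Bach2WT mice, so the groups overlapped. The log2 fold change of -0.27 ± 0.17 (SE) was not at an unadjusted p under 0.05 (adjusted p = 0.787, edgeR).

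Among the chymotrypsins, Ctrl (ENSMUSG00000031896, chr8:106658635-106660494, minus strand), which encodes a chymotrypsin-like protease, differed most. It had 26760, 28510, 34290 and 34200 CPM in Bach2KO mice and 42530, 49000, 54970 and 48970 CPM in Bach2WT mice. The groups did not overlap. The difference of -0.66 ± 0.16 (log2, SE), a ratio of 0.633, had an unadjusted p under 0.05 and an adjusted p = 0.352 in edgeR. Its share of all counts did not overlap either, at 3.06 to 3.96% in Bach2KO and 4.05 to 4.69% in Bach2WT mice.

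Ctrb1 (ENSMUSG00000031957, chr8:112413151-112417642, minus strand), the major chymotrypsinogen, had 160400, 158900, 170500 and 123100 CPM in Bach2KO mice and 128600, 186300, 174400 and 177600 CPM in Bach2WT mice. Each group held 1 low mouse, and the others lay close together. The difference of -0.12 ± 0.17 (log2, SE) was smaller than its SE and not at an unadjusted p under 0.05 (adjusted p = 0.933, edgeR). Its share of the family's counts was 47.2, 42.6, 44.5 and 36.3% in Bach2KO mice and 35.2, 42.0, 35.1 and 36.6% in Bach2WT mice. Bach2KO mice 1 to 3 lay above all Bach2WT mice, and Bach2KO mouse 4 among them.

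Ctrc (ENSMUSG00000062478, chr4:141565550-141573670, minus strand), the chymotrypsin C gene, had 106.3, 182.2, 218.7 and 176.1 CPM in Bach2KO mice. It had 169.4, 227.4, 243.8 and 332.1 CPM in Bach2WT mice. The groups overlapped, with Bach2KO mouse 1 lowest and Bach2WT mouse 4 highest. The log2 fold change of -0.51 ± 0.24 (SE) just missed an unadjusted p of 0.05 (adjusted p = 0.668, edgeR), and it was past it with the sex of the mouse as a covariate (adjusted p = 0.579). Without Bach2WT mouse 4 it was -0.32 and without Bach2KO mouse 1 -0.34 (adjusted p = 0.892 and 0.934, edgeR), both not past it. Cela2a overlaps Casp9, Ctrc the antisense gene Ctrcos and Ctrb1 a microRNA gene in the table. Whether counting used the strand is not given in the sources used here, so reads of such partners could not be separated.

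**Figure D4:**
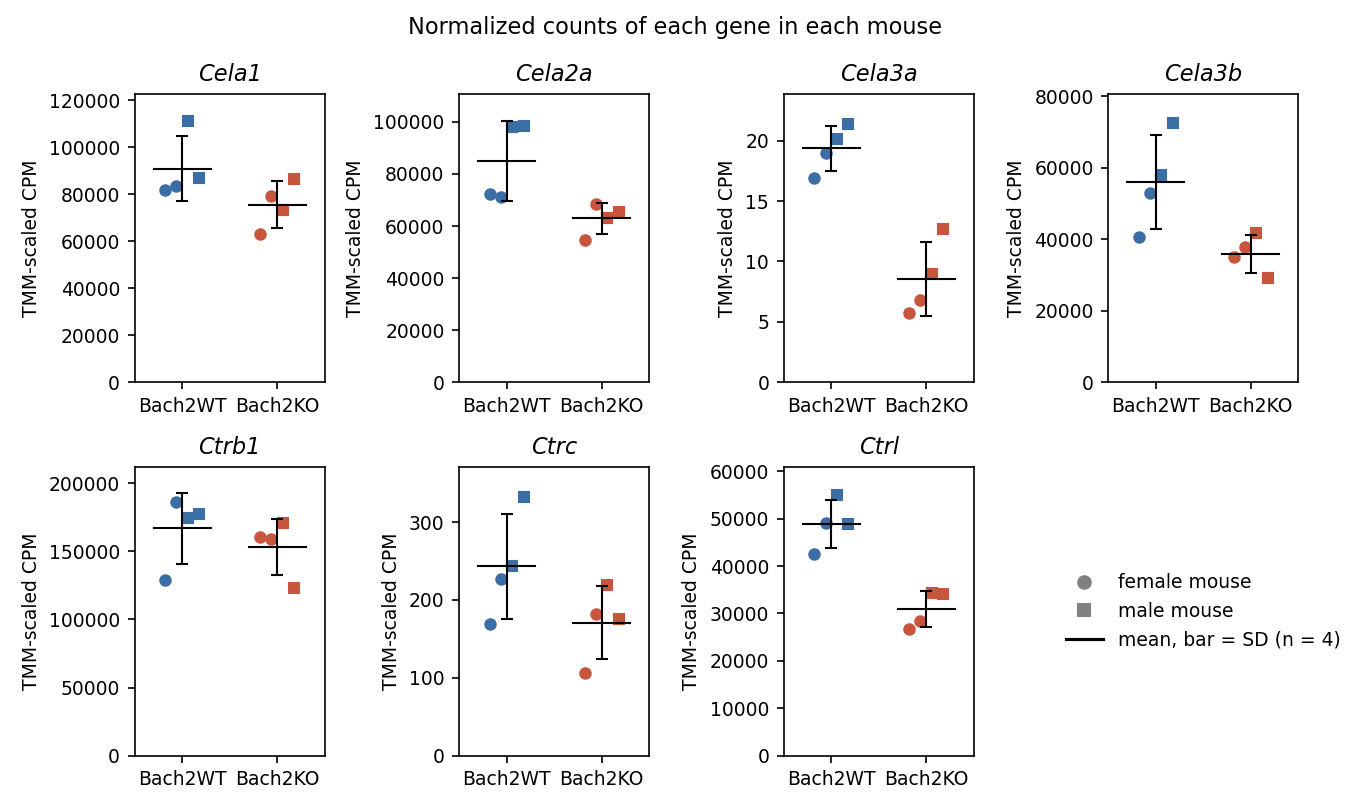
TMM-scaled CPM of each gene in each mouse (circles female, squares male), with the mean and SD of 4 mice per genotype; every axis starts at 0. Cela2a, Cela3a and Ctrl show no overlap between the genotypes, and Cela1, Cela3b, Ctrb1 and Ctrc do overlap.

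Ratios of 2 genes within a library do not depend on how libraries are scaled, and they showed that the make-up of the family differed between mice. Of the 21 pairs of members, 4 had ratios that did not overlap between the genotypes (p = 0.0286 each, two-sided exact permutation test, the smallest that 4 against 4 mice allow), and none passed after adjustment over the 21 pairs (adjusted p = 0.15). Cela3b was lower against Ctrb1 in Bach2KO mice. The log2 ratio of their counts was -2.20, -2.07, -2.03 and -2.08 in Bach2KO mice and -1.66, -1.81, -1.59 and -1.29 in Bach2WT mice. The SD among Bach2KO mice was 0.0707, and the mean difference was -0.51. The ratio of Cela1 to Ctrl was 1.24, 1.47, 1.098 and 1.34 in Bach2KO and 0.94, 0.77, 1.02 and 0.83 in Bach2WT mice, higher by 0.40 in Bach2KO mice. Cela3a was lower against both Cela1 and Cela2a in Bach2KO mice, since the ratios of these genes to Cela3a were higher by 0.97 and 0.82. Against its close relative Cela3b, Cela3a had log2 ratios of -12.58, -12.43, -12.18 and -11.17 in Bach2KO and -11.23, -11.45, -11.49 and -11.73 in Bach2WT mice. Bach2KO mouse 4 lay above all Bach2WT mice, and the difference of -0.62 was within the spread (p = 0.143, exact permutation test).

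The members were also set against the summed counts of 29 other digestive enzyme genes of the same library, which are trypsinogens, carboxypeptidases and the kallikrein Klk1, lipases, amylases and nucleases. Cela3a was lower in every Bach2KO mouse than in any Bach2WT mouse, by 0.89 on the log2 scale (p = 0.0286, adjusted over the 7 ratios p = 0.133, exact permutation test). Its log2 ratios were -16.06, -15.98, -15.57 and -14.93 in Bach2KO and -14.62, -14.87, -14.77 and -14.73 in Bach2WT mice. Ctrl was lower by 0.31 (p = 0.0857) and Cela3b by 0.27 (p = 0.0571), and Ctrb1 was higher by 0.23 (p = 0.0571, exact permutation tests). Ctrb1 had log2 ratios of -1.29, -1.47, -1.36 and -1.69 in Bach2KO and -1.73, -1.61, -1.69 and -1.70 in Bach2WT mice, so that Bach2KO mouse 4 again stood among the Bach2WT mice. Cela1, Cela2a and Ctrc differed by 0.08, -0.07 and -0.17, within the spread (p = 0.6, 0.629 and 0.571, exact permutation tests). Without the trypsinogens in the sum, Ctrl was lower in every Bach2KO mouse as well (-0.32, p = 0.0286, adjusted p = 0.1, exact permutation test). Cela3b (-0.28) and Ctrb1 (0.23) were then weaker (p = 0.171 for both, exact permutation tests).

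**Figure D5:**
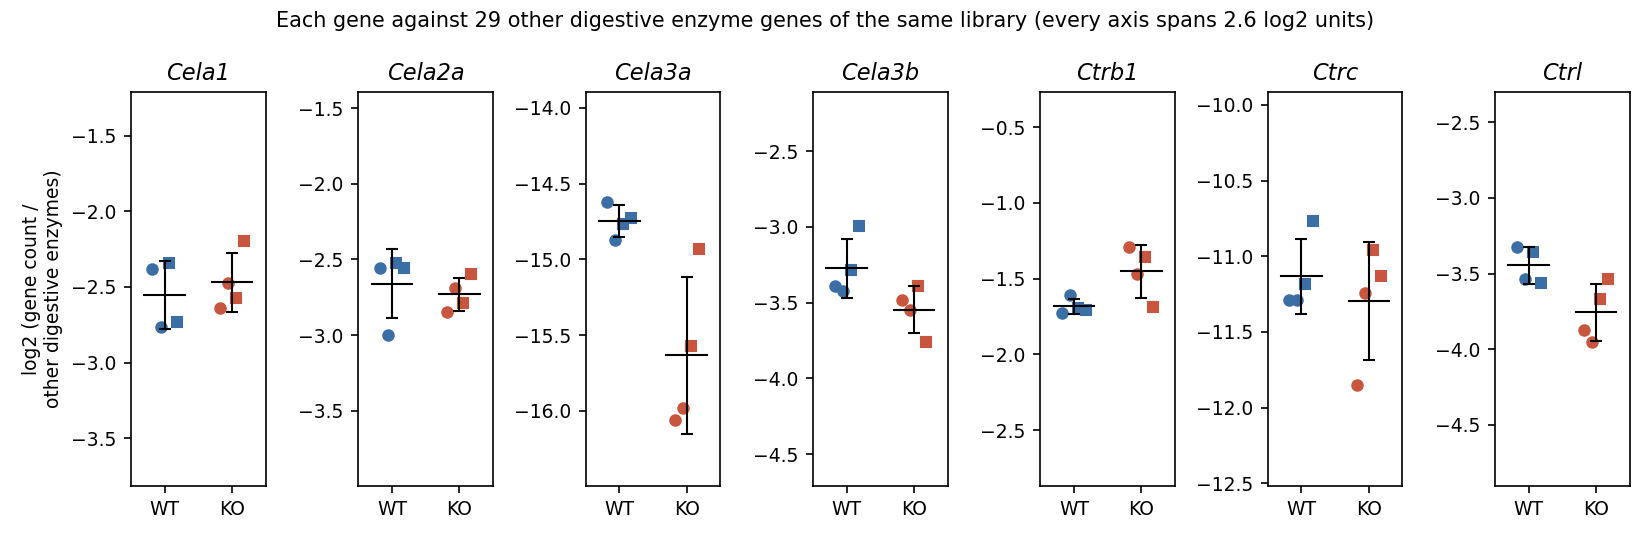
Log2 ratio of each gene's count to the summed count of 29 other digestive enzyme genes in each mouse (circles female, squares male), with the mean and SD of 4 mice per genotype; axes start at different values. Cela3a alone shows no overlap (Bach2KO -16.06 to -14.93, Bach2WT -14.87 to -14.62), and the points of the other 6 genes overlap.

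Sex entered as 2 mice per sex and genotype. No member differed between the sexes in its genotype difference at an adjusted p under 0.05 (lowest adjusted p = 0.855 for Cela3a, edgeR interaction term), and neither edgeR (0 genes, 787 at an unadjusted p under 0.05) nor DESeq2 (18 genes) called a member. The log2 fold change of Cela3a was -1.52 in females and -0.96 in males, and that of Cela3b -0.35 in females and -0.89 in males. In both sexes the Cela3a level of each Bach2KO mouse was below that of each Bach2WT mouse. Between the sexes, 2 members were at an unadjusted p under 0.05, against 5.29% of all genes. These were Cela3a and Ctrc, each higher in males by 0.50 (adjusted p = 0.89 for both) in the edgeR fit with sex and genotype.

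Across the 8 libraries the log2 CPM values of the members moved together to a varying degree, and these descriptions share the library scaling and the genotype. Pearson's r between pairs of members ran from 0.0873 to 0.963 with a median of 0.755. Cela3a and Ctrl were the closest pair (r = 0.963). Ctrb1 followed the others least, with r from 0.0873 with Cela1 to 0.72 with Cela3b. Outside the digestive enzymes, the 5 genes of 12785 whose log2 CPM was most like the mean of the members were Napa (r = 0.995), Ergic3 (r = 0.982), Bckdk (r = 0.978), Bbln (r = 0.977) and Sil1 (r = 0.973), each over 8 libraries. Napa had 26.3 ± 2.01 CPM in Bach2KO and 35.1 ± 4.07 CPM in Bach2WT mice (SD, n = 4).

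Most trypsinogen, carboxypeptidase and lipase genes were lower too on the TMM scale. Most amylase and nuclease genes were higher, though their summed level was lower. None passed the adjusted threshold in edgeR. Of all tested genes 45.3% were lower, and 3.56% were lower at an unadjusted p under 0.05. Of the 10 trypsinogens tested, whose products activate the proenzymes, 8 were lower, 4 of them at an unadjusted p under 0.05, and 1 was higher at that level. Try10 was at -1.31 (adjusted p = 0.266) and the scarce 1810009J06Rik at 2.48 (adjusted p = 0.448, edgeR). Their median was -0.54. Of the 4 carboxypeptidase and kallikrein genes 3 were lower, with Cpa1 (carboxypeptidase A1) at -0.53, the only one at an unadjusted p under 0.05 (adjusted p = 0.513, edgeR), and Cpb1 (carboxypeptidase B) at -0.23 (adjusted p = 0.788). All 6 lipase genes were lower, 2 at an unadjusted p under 0.05, namely Cel (carboxyl ester lipase) at -0.45 (adjusted p = 0.608, edgeR) and Pnliprp1 at -0.36 (adjusted p = 0.663). Of 8 amylase and nuclease genes 7 were higher, yet the list summed to less in Bach2KO mice. Its sums were 12550 to 17270 CPM in Bach2KO and 18870 to 27320 CPM in Bach2WT mice, with no overlap. Rnase1 alone had 14070 ± 2300 CPM in Bach2KO and 22810 ± 3670 CPM in Bach2WT mice (SD, n = 4). Amy2a1, the most abundant of the higher genes, had 602.8 ± 212 and 570.3 ± 61.7 CPM. Rnase1, the pancreatic ribonuclease, was at -0.70 (adjusted p = 0.371, edgeR) and the amylase gene Amy2a2 at 0.86 (adjusted p = 0.663), both at an unadjusted p under 0.05. Of 10 genes of zymogen granule and acinar secretory proteins 7 were lower. Zg16 at -0.36 was the only one of them at an unadjusted p under 0.05 (adjusted p = 0.663, edgeR).

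Inhibitors and regulators around the members did not all share their direction. Of 7 inhibitors of serine proteases tested 5 were higher. Spink1, the trypsin inhibitor of the pancreatic juice, stood at 447.8 ± 77.2 CPM in Bach2KO and 345.8 ± 33.5 CPM in Bach2WT mice (0.37, adjusted p = 0.655, edgeR), the only one at an unadjusted p under 0.05. Slpi, an inhibitor of leukocyte elastase, was scarce (0.54, adjusted p = 0.87, edgeR). Of 15 acinar transcription factors 8 were higher and 7 lower, with none at an unadjusted p under 0.05. Klf15 was at 0.96 (adjusted p = 0.671) and Rbpj, whose relative Rbpjl forms part of the PTF1 complex, at 0.82 (adjusted p = 0.695, edgeR). Klf15 had 5093 counts in Bach2KO mouse 1 and 584, 437 and 1649 in Bach2KO mice 2 to 4, and Rbpj was scarce. Rbpjl itself was at -0.30 and Bhlha15 at -0.36 (adjusted p = 0.801 and 0.756, edgeR). Ptf1a itself stood at 3.30 ± 0.876 CPM in Bach2KO and 3.12 ± 1.39 CPM in Bach2WT mice (0.08, adjusted p = 0.98, edgeR). The leukocyte proteases listed were elastase, chymase and tryptase genes together with granzymes and the carboxypeptidase gene Cpa3. Over the 9 in the table they summed to 0.411 to 1.01 CPM in Bach2KO and 0.274 to 1.11 CPM in Bach2WT mice. Only Tpsb2 (-0.95, adjusted p = 0.933) and Cpa3 (0.42, adjusted p = 0.96) could be tested with edgeR.

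Markers of acinar stress and of other cell types were counted beside the members. None passed the adjusted threshold in edgeR, and sums are over all listed genes in the table. Of all 12820 genes tested 45.3% were lower, and 500 were higher and 457 lower at an unadjusted p under 0.05. Of 13 stress and injury genes 12 were higher in Bach2KO mice, 5 at an unadjusted p under 0.05. These 5 were Nupr1, Reg2, Reg3a, Reg3b and Reg3g. Reg2 varied widely, at 2104 ± 2230 CPM in Bach2KO and 335.3 ± 467 CPM in Bach2WT mice (SD, n = 4). Atf4 was at 0.07, Hspa5 at 0.14 and Clu at -0.13 (adjusted p = 0.962, 0.941 and 0.938, edgeR). The 13 genes summed to 6907 to 11160 CPM in Bach2KO and 3312 to 7499 CPM in Bach2WT mice. Reg1 alone had 4705 ± 1060 CPM in Bach2KO and 3688 ± 1680 CPM in Bach2WT mice. Of 9 macrophage markers tested 7 were higher, 3 at an unadjusted p under 0.05, namely Retnla, Lyz1 and Lyz2. Adgre1 (-0.27) and Cd163 (-0.18) were lower (adjusted p = 0.934 and 0.96, edgeR). The macrophage markers summed to 15.24 to 24.54 CPM in Bach2KO and 7.85 to 15.22 CPM in Bach2WT mice. Chil3, too scarce to be tested, had 6, 26, 16 and 16 counts in Bach2KO mice and 0 counts in all Bach2WT mice. T cell markers summed to 0.990 to 3.44 CPM against 0.446 to 2.15 CPM, with 6 of 7 tested higher and none at an unadjusted p under 0.05. B and plasma cell markers summed to 7.40 to 151.5 CPM against 5.5 to 73.8 CPM, with 4 of 7 tested higher. Among them only Igha was at an unadjusted p under 0.05 (-4.28, adjusted p = 0.523, edgeR). It had 77, 0, 11 and 11 counts in Bach2KO and 1022, 206, 148 and 0 counts in Bach2WT mice. Of 6 endothelial markers 5 were higher, 1 at an unadjusted p under 0.05 (Cdh5, 1.07, adjusted p = 0.531), with sums of 14.7 to 29.5 CPM against 10.2 to 17.2 CPM. Adipocyte markers summed to 3.32 to 12.8 CPM against 1.28 to 21.2 CPM, with 3 of 4 tested lower. The 1 adipocyte marker at an unadjusted p under 0.05, Plin1 (adjusted p = 0.367), had 14, 0, 0 and 0 counts in Bach2KO and 101, 105, 44 and 14 counts in Bach2WT mice. Lep was at 0 counts in all Bach2KO mice and in Bach2WT mice 3 and 4, and at 12 and 10 counts in Bach2WT mice 1 and 2. Adipoq had 48, 0, 0 and 2 counts in Bach2KO and 215, 259, 0 and 0 counts in Bach2WT mice. Fabp4 was higher (0.21, adjusted p = 0.961, edgeR). Cfd had 1196, 0, 0 and 273 counts in Bach2KO and 956, 794, 337 and 27 counts in Bach2WT mice, so single mice differed widely within each group. Duct markers summed to 186.1 to 259 CPM against 227.3 to 264.7 CPM, with 4 of 8 tested higher, among them Krt7 (0.57, no overlap, adjusted p = 0.627, edgeR) at an unadjusted p under 0.05. Islet markers summed to 232.1 to 2045 CPM against 188 to 2333 CPM, with 7 of 11 higher, among them Gcg (1.33, adjusted p = 0.663, edgeR) at an unadjusted p under 0.05. Of 9 stellate cell and fibroblast markers 7 were higher, and of 5 red blood cell markers 3, with none at an unadjusted p under 0.05. Only 1 eosinophil and 1 neutrophil marker could be tested, both higher and neither at that level. The part of these cells and states in the lower levels of the members was not tested.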

How the data were processed

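Total RNA of homogenized pancreas was made into poly-A libraries and sequenced as paired-end reads of 150 bases. The submitters' processing notes name fastp, HISAT2 2.2.1, featureCounts 2.0.6 and the mm39 build. The strand setting, and whether both mates of a pair were counted, are not given in the sources used here. Of the deposited counts above 0, 60.1% were even. The authors deposited raw counts per gene, a signal that is the count divided by 1 size factor per library, and FPKM, which equalled that signal per kilobase of merged exons times 1 constant (4638 genes checked). FPKM therefore carries the size factor. The authors' own fold change and p-value columns were not used, and 0 columns of per-library values lacked a sample.

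Counts were tested with edgeR 4.0.16 (quasi-likelihood, TMM, filterByExpr on genotype), which kept 12820 of 21434 genes and all 7 members. P-values were adjusted by Benjamini-Hochberg over all genes tested. CPM values used the TMM factors, log2 CPM had a prior count of 2, and FPKM served for levels only. DESeq2 1.42.0 was an alternative. Count ratios were tested by exact permutation, on both sides (SciPy 1.17.1). Sequences were aligned with Biopython 1.88. The scripts were tested on simulated data. Printed values of libraries are rounded to 4 significant digits or fewer.

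The members and all lists were chosen with earlier results of these data known. Named genes are the 7 members, at least the 2 genes with the lowest p in each list of enzymes, inhibitors, transcription factors and leukocyte proteases, and the 5 genes most like the members. Of the granule, stress and cell type lists only some genes are named. Alternatives were other tools, scaling, filters, covariates, gene length and leaving out each mouse. Gene coordinates are those of the table (mm39), and sequences come from RefSeq (GRCm38.p6) and GENCODE vM21.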

Additional observations from a re-analysis of the deposited data

Results flagged for a closer look

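In groups of 4 mice, a value was marked where its gap to the nearest other mouse was large against the group's range (Dixon's 95% criterion). This was so in 5 of 86 groups of values, and chance marks about 1 in 20. Bach2WT mouse 2 stood apart for Cela2a in 3 measures that share the same count. Cela2a took 16.02% of the counts of the 7 members there, against 19.74 to 20.31% in the other Bach2WT mice. The log2 ratio of Cela2a to Ctrb1 was -1.392 in this mouse, against -0.8499 to -0.8287, and that of Cela2a to the other digestive enzymes was -3.001, against -2.559 to -2.522. The log2 ratio of Cela1 to Cela2a was 0.4026 in Bach2KO mouse 4, above 0.2053 to 0.2146 in the other Bach2KO mice. The same ratio was -0.179 in Bach2WT mouse 4, below 0.1776 to 0.2357 in the other Bach2WT mice, so that Cela1 counts were below Cela2a counts in that mouse alone among the 8.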

How the results depend on the processing

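With total counts and no factors, Cela1 (0.041) and Ctrb1 (0.195) turned in direction, and the median of all genes moved to 0.35. The number of members lower at an adjusted p under 0.05 was 2 with DESeq2 and 1 without a filter on low counts (Cela3a, adjusted p = 0.00461, edgeR), against 0 in edgeR as reported and under every other alternative. Without the filter 18 genes were lower and 55 higher at that threshold. The number of members lower at an unadjusted p under 0.05 stayed between 3 and 6 under all alternatives, while the share of all genes ran from 0.367% with total counts (3 members) to 6.32% with the correction for gene length (6 members). Cela3a, Cela3b and Ctrl were in that number under each one that gave them a value of their own. Leaving out each mouse gave -1.43 to -1.02 for Cela3a, -0.77 to -0.49 for Cela3b, -0.73 to -0.59 for Ctrl and -0.67 to -0.32 for Ctrc. Ctrc was below 0.05 in 10 of 18 alternatives and Cela1 in 2. Of the ratios to the other digestive enzymes, 1 had an exact p under 0.05 as reported and 2 without the trypsinogens (Ctrl -0.32). None of these passed after adjustment. With 1 mouse left out, the smallest exact p is 0.0571, so only values were compared: the 4 pairs without overlap stayed on their side of 0, while Cela2a to Ctrc (-0.05 to 0.23), Cela3b to Ctrc (-0.31 to 0.02) and Cela3b to Ctrl (-0.04 to 0.18) spanned it. So did Cela1 (-0.01 to 0.16) and Ctrc (-0.28 to 0.02) against the other digestive enzymes.

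The mouse numbers do not pair the groups: same-numbered mice correlated at 0.212, -0.0344, -0.0409 and -0.0543 in their deviations from the group means, and Bach2KO mouse 1 alone correlated best with its own number. With the number as a replicate block, 5 members were lower at an unadjusted p under 0.05, against 3.81% of all genes, with Cela3a at -1.24, and 0 at an adjusted p under 0.05.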
